A study of Drosophila melanogaster with 3 samples.

Results

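The 26S proteasome is the ATP-dependent protease that degrades ubiquitin-tagged proteins. Its 20S core is a barrel of alpha rings, which gate the entrance, and beta rings, which carry the proteolytic sites. The 19S regulatory particle caps the barrel: its Rpt ATPases unfold substrates, and its Rpn subunits form scaffolds, bind ubiquitin chains and remove them. In Drosophila, as in other animals, many of these genes are transcribed together, and in flies the factor encoded by cnc is known to raise their expression.

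The members are the 47 protein-coding genes, of 13968 on the annotated chromosome arms, whose symbol begins with Prosalpha, Prosbeta, Rpn or Rpt followed by a digit, leaving out Prosalpha6T, the neighbour of the gene that was tagged. They comprise 32 canonical subunit genes (7 alpha, 7 beta, 6 Rpt and 12 Rpn) and 15 paralogs with a T or R suffix, several of which are known from the fly testis. Binding of Mabi (CG15479) was measured at these genes by chromatin immunoprecipitation and sequencing (ChIP-seq) in whole Drosophila melanogaster embryos aged 0 to 4 h. Per the labels, the embryos were of mixed sex and came from 1 transgenic line in which the C-terminus of Mabi is fused to green fluorescent protein (GFP), and its source is described as an insertion that targets this gene. The promoter driving the fusion is not named in the labels. The description names an anti-GFP antibody, whereas the antibody field names CG15479. All 3 biological replicates belong to the same group, and no other condition is labelled, which leaves no groups to compare. The embryos span several stages and all of their cells, so a peak is an average over them. The labels do not say whether the untagged Mabi gene was still present.

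A member had a promoter peak in a list when a peak summit was found no more than 1000 bp from 1 or more of the gene's annotated transcription start sites (TSSs). The lists were those of the 3 replicates, the pooled list, and the list that passed the irreproducible discovery rate (IDR), a measure of how well replicate ranks agree. Each replicate list and the pooled list held 30000 peaks, and the IDR list held the 5049 strongest of the pooled peaks. Signal is the peak height deposited by the authors, on a scale that is not stated. It was therefore used only within a list, as a rank (1 is the strongest) or as a multiple of the list's median. Per the text notes deposited with the lists, the replicates shared 1 control alignment, so agreement between them can come in part from it. Read depth is unknown here, and intervals on shares are Wilson 95% intervals that cover counting over genes only.

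The IDR promoter peaks at proteasome genes were at genes of the 19S particle. An IDR promoter peak was present at 5 of the 47 members (10.6%, interval 4.63% to 22.6%), against 18.4% of all protein-coding genes. The 5 were Rpn8, Rpn2, Rpt4, Rpn5 and Rpn13. None of the 14 canonical 20S genes had one (upper limit 21.5%), while 5 of the 18 canonical 19S genes did (27.8%, interval 12.5% to 50.9%), and these intervals overlap. Both intervals include the 18.4% of all genes. The difference between core and 19S genes was not tested, and 4 of the 5 summits lay nearer to another gene's start. The core count also depends on the window, as IDR summits lay 1003 bp from Prosalpha6 and 1269 bp from Prosbeta4. The core gene Prosalpha1 lies in repeated sequence, where absence of a peak cannot be read. None of the 15 paralogs had one (upper limit 20.4%). Because members have at most 3 TSSs, genes with no more than that were also counted, of which 17.1% had an IDR promoter peak and 55.5% a pooled one. The members' share of IDR peaks thus lay below that of all genes, with an interval that includes it.

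A pooled promoter peak was present at 27 of the 47 members (57.4%, interval 43.3% to 70.5%), against 56.6% of all genes. A pooled promoter peak without an IDR one was present at 22 of the 47 members (46.8%, interval 33.3% to 60.8%). The share was 38.2% of all genes, which is within the interval. Genes with an IDR promoter peak stay in both denominators, so these shares also depend on how many genes had one. The canonical genes and the paralogs stood far apart in the count of all pooled promoter peaks, those in the IDR list included. It was 25 of 32 (78.1%, interval 61.2% to 89.0%) against 2 of 15 (13.3%, interval 3.74% to 37.9%), and these intervals do not overlap. By role, pooled peaks were present at 5 of 7 alpha genes, 6 of 7 beta genes, 5 of 6 Rpt genes and 9 of 12 Rpn genes.

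**Figure D1:**
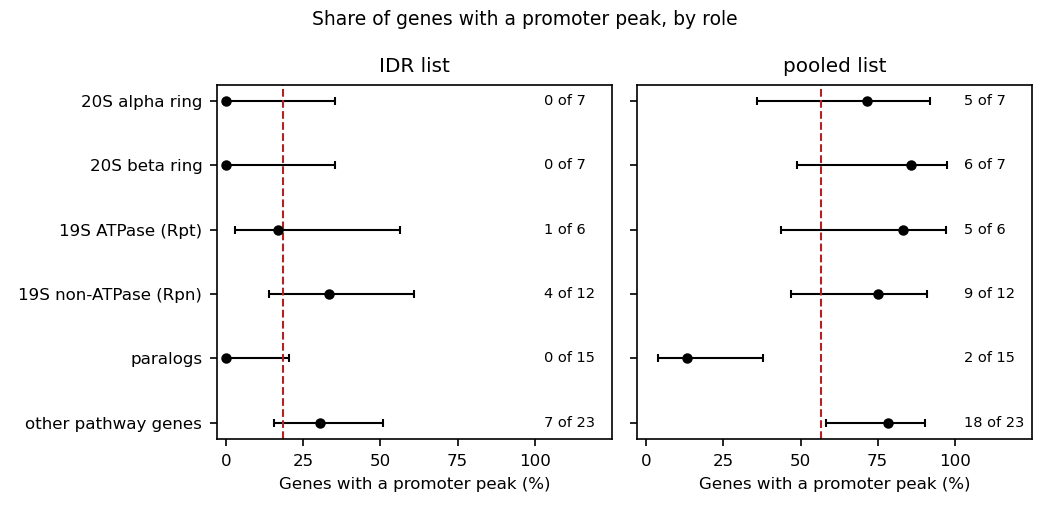
Share of genes with a promoter peak (horizontal axis, percent) by role, in the IDR list (left) and the pooled list (right). Points are shares, bars are Wilson 95% intervals over genes, the dashed line is the share of all protein-coding genes (18.4% and 56.6%), and counts stand at the right. IDR promoter peaks are found at Rpt and Rpn genes but at none of the 14 core genes, a difference that was not tested. The paralogs are the class with the lowest share in the pooled list.

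The replicates gave similar but not equal counts. A promoter peak was present at 30 members in replicate 1, against 53.5% of all genes. In replicate 2 it was present at 22 members, against 56.3% of all genes, and in replicate 3 at 29, against 56.0%. All 3 replicate lists had one at 18 members (38.3%), against 43.0% of all genes. Of these 18, 17 were canonical and 1, Rpt3R, was a paralog. Among the 5049 strongest peaks of each replicate, all 3 replicates had a promoter peak at 4 members (8.51%), against 12.6% of all genes. These 4 were Rpn2, Rpn5, Rpn8 and Rpt4, all of them genes with an IDR peak. At least 1 replicate or the pooled list had a promoter peak at 33 members (70.2%), against 67.9% of all genes, so that 14 members had none in any list.

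**Figure D2:**
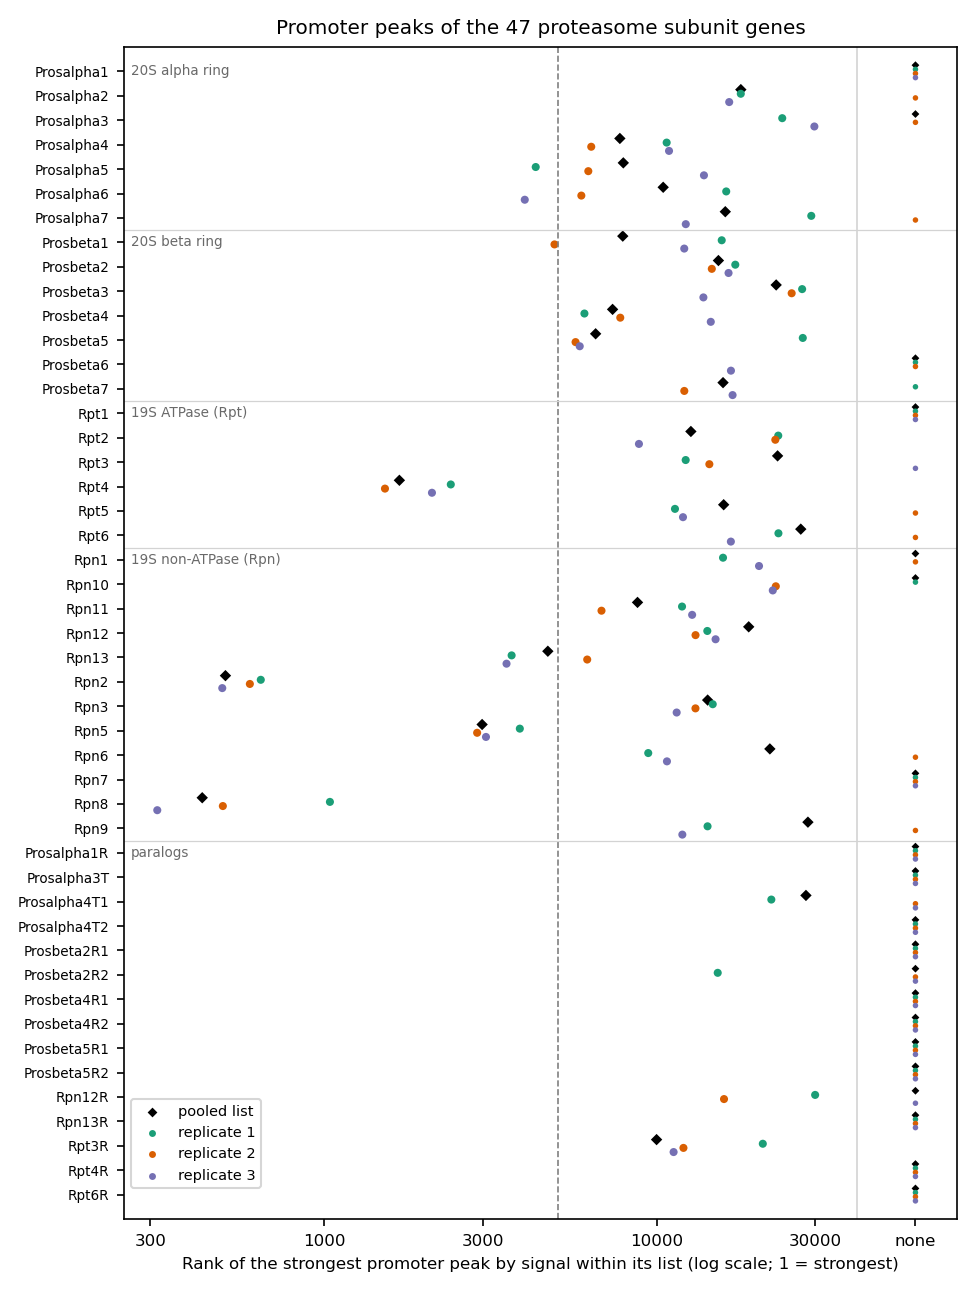
Rank of the strongest promoter peak (horizontal axis, log scale, 1 is strongest) for each of the 47 members, grouped by role, in the pooled list (diamonds) and in the 3 replicate lists (circles). The dashed line marks rank 5049, the length of the IDR list, and points at the far right stand for lists with no promoter peak. Rpn8, Rpn2, Rpt4 and Rpn5 lie to the left of the line in all 4 lists, and most paralogs have no point left of the margin.

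Among the 19S genes with an IDR peak, Rpn2, Rpt4 and Rpn5 each face a gene on the other strand, and the sequence between the paired starts is shown to set their promoters beside their summits. They are the members with the 3 strongest IDR peaks on the arms from which sequence is shown. The strongest summits at Rpn2 and Rpn5 lie beyond the neighbour's end of the stretch, and that of Rpt4 lies just inside Rpt4. Rpn2, a large scaffold subunit of the 19S base, starts 258 bp from Slbp, which encodes the histone mRNA stem-loop binding protein. Rpt4, one of the ATPases of the base, starts 58 bp from mldr. Rpn5, a structural subunit of the 19S lid, starts 109 bp from Hat1, a histone acetyltransferase gene. The sequences are from RefSeq genome Release 6 (dm6), 5′ to 3′ on the strand of the proteasome gene and ending at the base before its start. Capitals mark motif matches, which are core promoter motif 6 in Rpt4 and a TATA box in Rpn5, and the Rpn2 stretch held none of the 9 motifs searched. They are chr3R:29153267-29153523 on the plus strand for Rpn2, chrX:6291246-6291302 on the minus strand for Rpt4, and chr3R:5789385-5789492 on the plus strand for Rpn5.
Rpn2: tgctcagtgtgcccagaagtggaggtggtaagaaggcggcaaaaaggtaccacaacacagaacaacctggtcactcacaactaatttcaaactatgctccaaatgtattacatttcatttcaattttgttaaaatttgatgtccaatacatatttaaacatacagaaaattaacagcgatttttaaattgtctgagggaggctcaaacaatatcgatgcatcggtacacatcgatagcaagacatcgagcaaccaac
Rpt4: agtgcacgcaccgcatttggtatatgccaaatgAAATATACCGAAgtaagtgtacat
Rpn5: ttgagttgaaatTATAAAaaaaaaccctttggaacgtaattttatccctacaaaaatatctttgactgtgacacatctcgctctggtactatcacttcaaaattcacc

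The peak at Rpn2 was among the strongest at any member, with a signal of 1129 and rank 505 in the pooled list. It spanned chr3R:29152960-29153409, with its summit at 29153247. The summit lay 277 bp upstream of the Rpn2 start and 19 bp from the start of Slbp, within the Slbp 5′ UTR. The signal at this site was 6.33, 6.72 and 8.77 times the list median in replicates 1, 2 and 3 (7.27 ± 1.31, SD, n = 3), at ranks 645, 598 and 494. All 3 replicates were high, and each replicate summit lay within 8 bp of the pooled one. A second IDR summit at 29153450 lay 74 bp upstream of Rpn2, between the paired starts and inside the sequence shown above, with a signal of 601 and rank 1689.

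At Rpt4 the summit fell in the gene's own 5′ UTR. The peak spanned chrX:6291136-6291361, with its summit 9 bp downstream of the Rpt4 start and 67 bp from the start of mldr. It had a signal of 602 and rank 1684. In replicates 1, 2 and 3 it reached 3.21, 4.19 and 4.13 times the list median (3.85 ± 0.552, SD, n = 3), at ranks 2404, 1524 and 2110. Among the strongest IDR summits of the 5 members it was the only one that lay nearer to the member's start than to that of another gene.

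At Rpn5 the summit lay in Hat1. The peak spanned chr3R:5789054-5789549, with its summit 191 bp upstream of the Rpn5 start, in a Hat1 intron and 82 bp from the Hat1 start. It had a signal of 423 and rank 2986. The replicates gave 2.37, 2.89 and 3.20 times the list median (2.82 ± 0.418, SD, n = 3), at ranks 3877, 2885 and 3146. This site was weaker than those of Rpn2 and Rpt4 in each of the 3 replicates.

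The other two genes with an IDR peak lie on chromosome arm 2R. Rpn8 encodes the catalytically inactive partner of the deubiquitinase Rpn11 in the 19S lid, and its peak was the strongest at any member, with a signal of 1200 and rank 430. It spanned chr2R:24402214-24402918, with the summit 414 bp upstream of the nearer of the gene's 2 TSSs, inside an Rpn8 intron and the 5′ UTR of Slik, a protein kinase gene whose start was 89 bp away. In replicates 1, 2 and 3 it reached 5.04, 7.31 and 10.5 times the list median (7.61 ± 2.74, SD, n = 3), at ranks 1041, 496 and 315. The spread over replicates was the widest of the 5, with replicate 1 lowest. The same interval held a second IDR summit 212 bp upstream of that TSS, with a signal of 447. The peak is not counted for Rpn8 when the most upstream TSS alone is used, or when a summit counts only for the nearest TSS.

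Rpn13 encodes a ubiquitin receptor of the 19S particle, and its peak was near the end of the IDR list, with a signal of 308 and rank 4707, where the weakest listed peak had 291. The summit lay 577 bp upstream of the nearest Rpn13 TSS, in an intron of CtsL1, a cathepsin protease gene whose start was 200 bp away, so it is not counted within 500 bp. The replicates gave 2.46, 1.74 and 2.93 times the list median (2.38 ± 0.60, SD, n = 3), at ranks 3663, 6182 and 3536. Replicate 2 fell outside its 5049 strongest peaks, which is why this gene was not counted as strong in all 3.

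**Figure D3:**
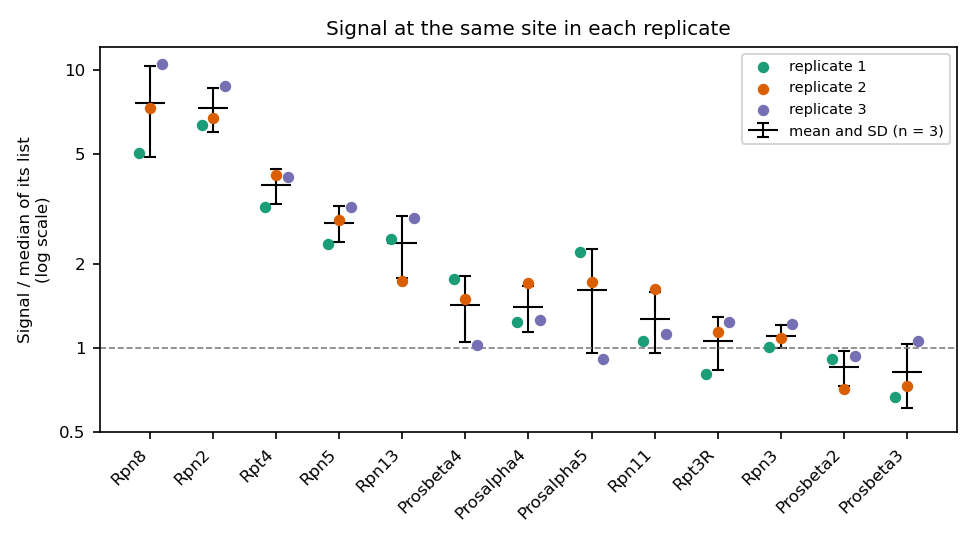
Signal at the pooled summit's site as a multiple of the list median (vertical axis, log scale) in each replicate, for the 13 members whose site recurred in all 3 replicates within 200 bp. Black bars are the mean and SD (n = 3) and the dashed line is the list median. Rpn8, Rpn2, Rpt4 and Rpn5 exceed 2 in every replicate, while Prosbeta2 lies below 1 in all 3.

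The remaining 19S genes had weaker peaks or none. Rpn11, the deubiquitinase of the lid, had the strongest, with a pooled signal of 193 and rank 8758 at a summit 33 bp upstream of its start. Its site gave 1.06, 1.63 and 1.13 times the list median in replicates 1, 2 and 3 (1.27 ± 0.314, SD, n = 3). Rpt2 (rank 12673), Rpn3 (rank 14233), Rpt5 (rank 15903), Rpn12 (rank 18913), Rpn6 (rank 21897), Rpt3 (rank 23099), Rpt6 (rank 27122) and Rpn9 (rank 28499) followed. Rpn3, Rpn6, Rpn9 and Rpn12 are structural subunits of the lid and Rpt2, Rpt3, Rpt5 and Rpt6 are ATPases. Of these 8, Rpn3 was the one whose site recurred in all 3 replicates, at 1.01, 1.09 and 1.22 times the list median (1.11 ± 0.106, SD, n = 3). Its values were all close to the median peak of each list. The Rpn9 summit, near the end of the pooled list, had no replicate summit within 200 bp.

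Rpn1, Rpn7, Rpn10 and Rpt1 had no pooled promoter peak. Rpn1, the other large scaffold subunit of the base, had a promoter peak in replicates 1 and 3, at ranks 15832 and 20313. Rpn10, a ubiquitin receptor, had one in replicates 2 and 3, at ranks 22818 and 22343. Rpn7, a lid subunit, and the ATPase gene Rpt1 had none in any list. The nearest pooled summit to Rpn7 lay at 1025 bp, just beyond the window, and the nearest to Rpt1 at 6759 bp.

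No 20S core gene reached the IDR list, and those nearest to it in the pooled list were beta and alpha genes alike. Prosbeta5, the subunit with the chymotrypsin-like site, was the strongest with a signal of 240 and rank 6553, against 291 for the weakest IDR peak. Its summit lay 95 bp upstream of its own start and 1 bp from that of dgo. The site was present at 1.84 and 2.04 times the list median in replicates 2 and 3, and replicate 1 had no summit within 200 bp of it. Prosbeta4, a structural beta subunit, had rank 7369, with 1.78, 1.5 and 1.02 times the list median in replicates 1, 2 and 3 (1.43 ± 0.380, SD, n = 3). This strongest summit was 278 bp inside the gene, in a coding exon, and a weaker pooled summit lay 76 bp from the start. Prosalpha4, at rank 7750, had its summit 378 bp inside a coding exon, with 1.24, 1.71 and 1.27 times the list median (1.41 ± 0.266, SD, n = 3). These values overlap those of Prosbeta4, and all lie below every replicate value of Rpn5.

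Prosbeta1, which carries the caspase-like site, had rank 7908 with a summit 47 bp upstream of its start. The site gave 2.03 and 1.17 times the list median in replicates 2 and 3, and none was listed within 200 bp in replicate 1. Prosalpha5 had rank 7937, but its strongest summit lay 994 bp upstream of its nearest TSS, at the edge of the window. The nearest of its 3 pooled summits, a weaker one, lay 26 bp from a TSS. The strongest site gave 2.21, 1.73 and 0.91 times the list median in replicates 1, 2 and 3 (1.62 ± 0.655, SD, n = 3), the widest spread of any core gene whose site recurred in all 3. Prosalpha6 had rank 10461 at a summit 89 bp inside the gene. Stronger summits lay 999 bp upstream of Prosalpha6 in replicates 2 and 3, at ranks 5936 and 4012, and the nearest IDR summit to this gene lay 1003 bp away. Prosalpha5 (rank 4328 in replicate 1), Prosalpha6 in replicate 3 and Prosbeta1 (rank 4929 in replicate 2) were the 3 members with a promoter peak among the 5049 strongest of a single replicate.

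The other core genes had peaks near or below the list median. Prosbeta2, which carries the trypsin-like site, had rank 15335 with its strongest summit 919 bp inside the gene. The nearest of its 3 pooled summits, a weaker one, lay 15 bp from its start. The replicate values at the strongest site were 0.92, 0.71 and 0.93 times the list median (0.854 ± 0.125, SD, n = 3). Prosbeta7 (rank 15833), Prosalpha7 (rank 16082), Prosalpha2 (rank 17910) and Prosbeta3 (rank 22873) were weaker still in the pooled list. Of these 4, Prosbeta3 had its site in all 3 replicates, at 0.67, 0.73 and 1.06 times the list median (0.820 ± 0.213, SD, n = 3), and the other 3 had it in 2. Prosalpha3 had no pooled promoter peak, and was listed in replicates 1 and 3 at ranks 23855 and 29799.

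Prosbeta6 also had no pooled promoter peak, and its upstream sequence is shown as an example of a core promoter without one. Replicate 3 alone had a summit, 32 bp inside the gene at rank 16724, and the nearest pooled summit lay 1784 bp away. The sequence is from RefSeq genome Release 6 (dm6), chr3L:16610419-16610661 on the minus strand, 5′ to 3′ and ending at the base before the start. Capitals mark a pair of TATA box matches, read on the opposite strand, and a DNA replication-related element (DRE).
Prosbeta6: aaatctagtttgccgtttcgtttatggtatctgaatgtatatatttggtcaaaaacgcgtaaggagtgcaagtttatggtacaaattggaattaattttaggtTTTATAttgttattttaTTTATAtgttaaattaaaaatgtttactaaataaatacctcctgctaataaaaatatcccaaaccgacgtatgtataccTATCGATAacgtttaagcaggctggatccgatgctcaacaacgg

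Prosalpha1 had no peak in any list, and this absence cannot be read as an absence of binding. Every one of the 1952 stretches of 50 bases within 1000 bp of its start occurs again elsewhere in the assembly, and the same holds for its neighbouring copy Prosalpha1R. The treatment of reads that match several places is not given here. Among the other 45 members the share of such stretches was at most 3.16%, in Rpn3, and it was 0 in 43 of them.

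The paralogs had few peaks of any kind. Rpt3R had the strongest, at rank 9993 in the pooled list, with a summit 9 bp upstream of its start and 28 bp from that of Alg12, a glycosylation enzyme gene. Its site gave 0.81, 1.14 and 1.24 times the list median in replicates 1, 2 and 3 (1.06 ± 0.227, SD, n = 3). Prosalpha4T1 had a pooled peak at rank 28111, 922 bp inside the gene and in an intron of CG42322, and only replicate 1 had a summit within 200 bp of it. Prosbeta2R2 was listed in replicate 1 alone and Rpn12R in replicates 1 and 2. The other 11 paralogs had no promoter peak in any list.

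Summits at proteasome genes often lay close to a neighbour's start. For 21 of the 27 members with a pooled peak (77.8%), another protein-coding gene also had a TSS within 1000 bp of the strongest summit, against 51.4% of all genes with a pooled promoter peak. In each of these 21 a gene on the opposite strand was in reach. The neighbour's TSS was nearer to the summit than the member's own for 9 of the 27 (33.3%), against 25.7% of all such genes. Among the 5 members with an IDR peak, a neighbour was in reach at all 5, against 52.7% of all genes with an IDR promoter peak, and was nearer at 4, against 26.3%. A peak in such a shared stretch cannot be assigned to one gene of the pair from these data. When each summit was counted only for the gene with the nearest TSS, 2 members kept an IDR peak, Rpn2 through its second summit and Rpt4.

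**Figure D4:**
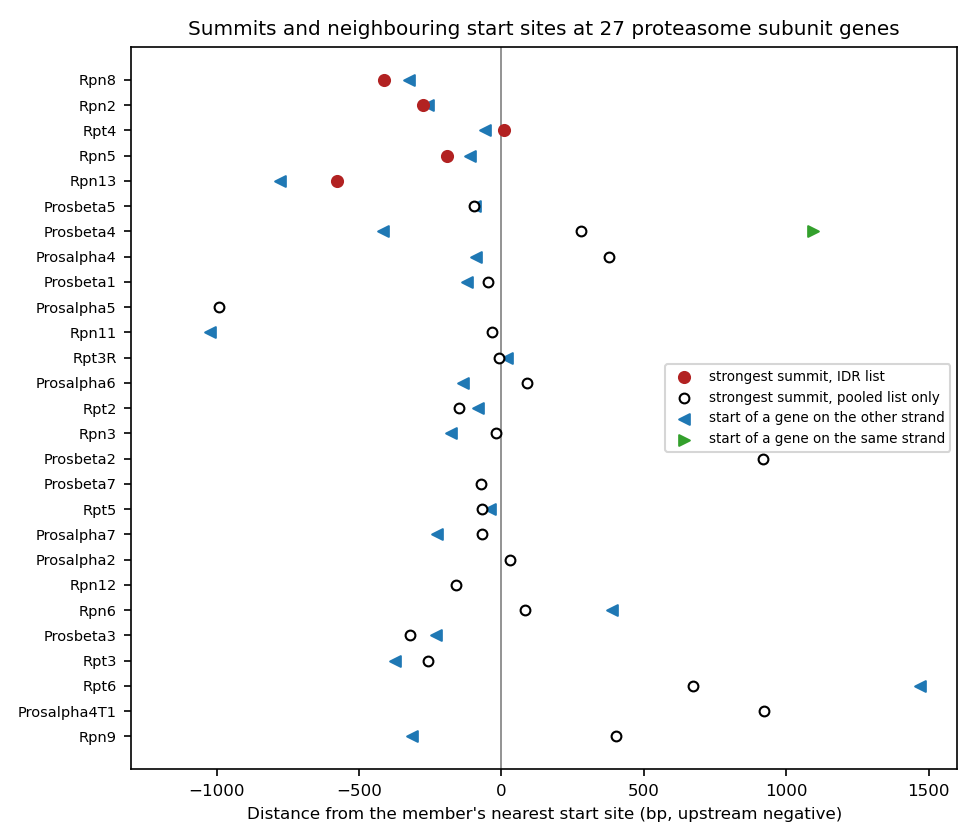
Position of the strongest pooled summit (circles, filled where it is in the IDR list) relative to the nearest start site of the member (0 on the horizontal axis, in bp, upstream negative) for the 27 members with a pooled promoter peak, ordered by rank. Triangles mark the start sites of other protein-coding genes within 1000 bp of the summit. At Rpn8, Rpn2, Rpn5 and Rpn13 the summit lies nearer to the neighbour's start than to the member's.

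The arrangement itself was common among the members. It was counted at the most upstream TSS of each gene only. A gene on the other strand began within 1000 bp upstream of that TSS at 22 of the 47 members (46.8%). This held for 19 of the 32 canonical ones (59.4%), against 35.2% of all protein-coding genes. Among all genes so arranged 28.1% had an IDR promoter peak, against 13.1% of the others. Among the members, 4 of 22 so arranged and 1 of the 25 others had one. The 1 was Rpn8, whose IDR peak was assigned through its other TSS. Slik begins 325 bp upstream of that TSS on the other strand, so the split depends on the TSS used. How far the arrangement bears on the counts of peaks at the members was not tested.

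The median pooled peak at a member ranked below that of all genes with one. The strongest promoter peak of a member had a median rank of 12673, at the 42.2 percentile of the pooled list counted from the strongest, against the 28.8 percentile over all 7903 genes with one. Its median signal was 1.13 times the list median, against 1.49 times. The strongest summit over all TSSs of a gene was used. Members have at most 3 TSSs and all genes up to 16, with a median of 1 in both. The rank comparison was not limited to genes with few TSSs. In the lists of replicates 1, 2 and 3 the members' median percentile was 50, 24.3 and 40.3, against 30.5, 27.8 and 29.6 for all genes. Members ranked lower than all genes in replicates 1 and 3 and slightly higher in replicate 2, where fewer of them were listed. Pooled summits were upstream at 17 of the 27 (62.96%, against 62.6% of all genes with one), and 15 lay within 250 bp of a TSS of the member (55.6%, against 54.7%), shares close to those of all genes. The median summit lay 47 bp upstream, against 74 bp upstream for all genes. The median distance from a member to the nearest IDR summit of any kind was 9359 bp, against 9977 bp for all genes on arms with an IDR peak.

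The promoter sequences of the members were searched on both strands for 9 motifs, from 250 bases before to 50 bases after the most upstream TSS. The motifs were the DRE (TATCGATA), the E-box (CACGTG), the GAGA element (GAGAG), the core of the Zelda site (CAGGTA), the antioxidant response element bound by Cnc with Maf (TGACNNNGC), the TATA box (TATAAA) and core promoter motifs 1, 6 and 7. No consensus contained another, although matches may overlap at their ends. The DRE, bound by the factor Dref, was found in 12 members (25.5%, interval 15.3% to 39.5%), against 9.36% of all promoters. All 12 were canonical: Prosalpha3, Prosalpha5, Prosalpha6, Prosbeta1, Prosbeta2, Prosbeta6, Rpn3, Rpn7, Rpn9, Rpn12, Rpn13 and Rpt5. Rpn13 was the only one of these 12 with an IDR peak, and Prosalpha3, Prosbeta6 and Rpn7 had no pooled peak.

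The other motifs were found in at most 18 members each. The E-box was in no member, against 4.20% of all promoters, with an upper limit of 7.56%. The GAGA element was in 9 members (19.1%), 3 of them canonical, against 29.7%. The antioxidant response element was in 6 members (12.8%), namely Prosalpha2, Prosbeta3, Prosbeta4R2, Rpn1, Rpn7 and Rpt6, none of which had an IDR peak, against 8.62%. The TATA box was in 18 members (38.3%, against 45.8%), the Zelda core in 4 (8.51%, against 6.24%) and core promoter motif 1 in 4 (8.51%, against 4.49%). Core promoter motif 7 was in 6 (12.8%, against 9.28%). Core promoter motif 6 was in 4 (8.51%, against 2.23%), which were Prosalpha1, Prosalpha1R, Rpn12R and Rpt4, the first pair of them copies of one sequence. These matches describe letters in the reference and not bound sites.

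**Figure D5:**
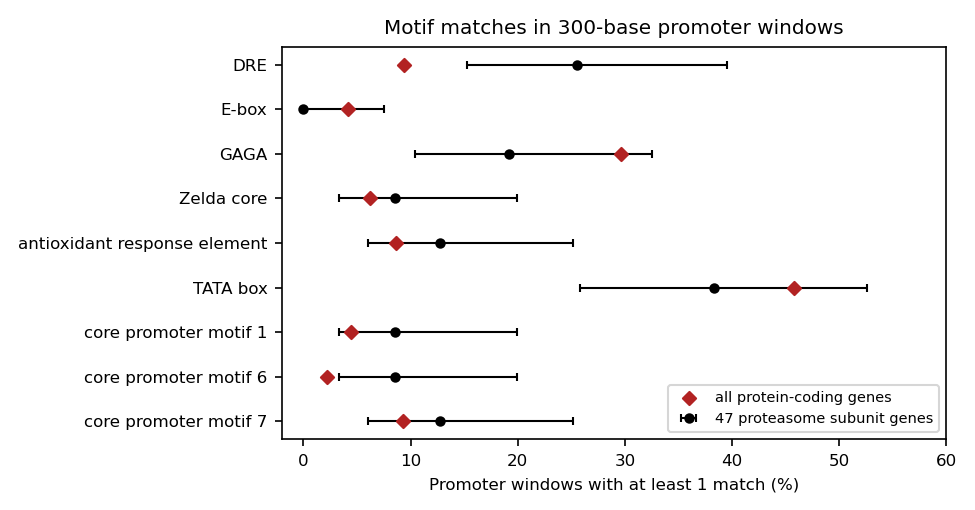
Share of promoter windows with at least 1 match (horizontal axis, percent) for 9 motifs. Circles with bars are the 47 members with Wilson 95% intervals, and diamonds are all 13968 protein-coding genes. The DRE (25.5% against 9.36%) and core promoter motif 6 (8.51% against 2.23%) are the motifs whose diamond lies left of the bar. The members with motif 6 include Prosalpha1 and Prosalpha1R, copies of the same sequence that are counted separately in the bar.

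Among other genes of the proteasome pathway, regulators of subunit genes included, the strongest peaks lay at cnc and Keap1. Of 23 such genes, 7 had an IDR promoter peak (30.4%, interval 15.6% to 50.9%), against 18.4% of all genes, which the interval includes, and it overlaps that of the members. A pooled peak was present at 18 of the 23 (78.3%), against 56.6% of all genes. The peak at cnc had a signal of 1567 and rank 216, and ranked 243, 184 and 289 in replicates 1, 2 and 3. The next was Keap1, which encodes the inhibitor of the Cnc protein, with a signal of 1433 and rank 279, and ranks of 404, 269 and 273 in the replicates. Both ranked above every proteasome subunit gene in the pooled list and in each replicate list. The cnc gene has 10 annotated TSSs and Keap1 has 2, while no member has more than 3.

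The other 5 were Ufd1 (signal 613), which acts with the segregase TER94 in handing over ubiquitin-tagged proteins, the ubiquitin gene Ubi-p5E (511), the proteasome activator gene REG (388), TER94 itself (360) and Uch-L5 (343), a deubiquitinase of the 19S particle. The gene maf-S, which encodes the partner of Cnc, had a weak pooled peak at rank 18539, and PI31, which encodes a regulator of the core, had one at rank 11921. Pomp, which assists assembly of the 20S core, had one at rank 9914, and Sem1, a small lid subunit whose symbol falls outside the rule, had none in the pooled list. Nedd8 had no promoter peak in any list.

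Another large protein complex made of many co-expressed subunits gave a higher share. Of 92 cytoplasmic ribosomal protein genes, 41 had an IDR promoter peak (44.6%, interval 34.8% to 54.7%), against 18.4% of all genes. RpS27A and RpL40, neither with an IDR promoter peak, count both here and among the pathway genes above. The interval of the cytoplasmic genes does not overlap that of the 47 proteasome members. Nor does it overlap that of the 32 canonical members (15.6%, interval 6.86% to 31.8%). Of 73 mitochondrial ribosomal protein genes, 18 had an IDR promoter peak (24.7%, interval 16.2% to 35.6%), and this interval overlaps that of the members. Strong peaks in all 3 replicates were present at 23.9% of the cytoplasmic genes (interval 16.4% to 33.6%), against 12.6% of all genes. That interval overlaps the one for the members (8.51%, interval 3.36% to 19.9%).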

How the data were processed

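Peaks were deposited by the authors on dm6 as 5 lists, of 3 replicates, their pool and the IDR list. The signal of each peak, its −log10 q value and its summit offset were taken as deposited. Per the text notes deposited with the lists, each replicate's peaks came from its own alignment and a shared control, the pooled list from the 3 alignments and that control, and the IDR list from all of these lists. No source used here names the aligner, peak caller, their settings or the read depth, and alignments were not analysed. The −log10 q value, deposited by the authors, is constant in the IDR list and was used only for an alternative ranking.

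Gene models were from Ensembl release 115 and sequence from RefSeq genome Release 6. A summit counted for every gene with a TSS within 1000 bp of it, and a replicate summit within 200 bp of a pooled one counted as the same site. The assignment was tested on simulated peaks placed at genes with a single TSS, far from the starts of other genes. That test does not cover shared promoters or genes with several TSSs. Python 3.11.15, numpy 2.4.6, pandas 2.3.3, statsmodels 0.14.6 (Wilson 95% intervals) and matplotlib 3.10.9 were used. Shares of members stand beside those of all genes, with no test of a list. The replicates are 3 separate biological samples of 1 group.

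The members and lists were chosen with earlier results of these data known. Named were every canonical member, paralogs with a pooled peak, members with an IDR peak and the genes sharing those peaks, and the genes of the pathway list with an IDR peak. Paralogs listed in single replicates, and Pomp, Sem1, PI31, maf-S and Nedd8, were named after their values were seen. In the pathway list Ufd1-like is annotated as Ufd1, and CG30382 is the member Prosalpha1R, which left 23 genes. Sequence is shown for the 3 members off chromosome arm 2R with the strongest IDR peaks and for the first canonical member there, in alphabetical order, without a pooled peak. Alternatives changed the window, the TSSs used, the summits counted, the strength required and the replicates kept.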

Additional observations from a re-analysis of the deposited data

How the results depend on the processing

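Of 78 alternatives over 24 results, 56 left the value the same. For a count this meant within 1.5 times, and for the summit offset and the rank percentile within the SD over replicates. For a motif share it meant inside the Wilson interval over genes, and for the signal of a named member an equal value. Only the summit offset could change direction, and it stayed upstream in each of its alternatives. The count of members with an IDR promoter peak, 5, rose to 9 within 2000 bp (22.7% of all genes), and fell to 2 with the nearest TSS only (14%) and to 3 among the 2524 strongest peaks of the list (9.52%). The canonical count became 8, 2 and 3 under the same settings. Within 2000 bp the added members were Prosalpha6, Prosbeta4, Rpt3 and Rpn12R. Among the stronger 50% of the pooled list 15 members (31.9%) had a promoter peak in place of 27, against 40.5% of all genes. With the nearest TSS only, 11 members had a peak in all 3 replicate lists (23.4%, against 32.1% of all genes), 2 had a strong one in all 3 (4.26%, against 9.54%), 4 pathway genes had an IDR peak, and 9 mitochondrial ribosomal protein genes did. The median summit offset changed from -277 bp at the 5 IDR members to -47 bp at the 27 pooled ones. The median rank percentile was 24.3 in the list of replicate 2. Leaving out each replicate in turn gave 4 to 5 members with an IDR peak, all and canonical, where the peak also had to be strong in both remaining replicates (13.2% to 14.9% of all genes). The IDR list itself still came from all 3 replicates, so this count could only stay or fall. Leaving out a replicate also gave 20 to 26 members with a peak in both remaining lists (42.6% to 55.3%, against 45.9% to 48.3% of all genes), and 4 to 5 with a strong one (8.51% to 10.6%, against 13.4% to 15.04%). Rpn8 lost its IDR peak with 1 TSS per gene, and Rpn13 within 500 bp. Rpn13 was lost without replicate 1 or 3, settings that keep replicate 2, where its peak ranked 6182. The DRE was found in 14.8% of member windows that reach 100 bases to either side of the pooled summit, against 5.20% of all such windows. The causes of these changes beyond the settings themselves were not tested. No paired analysis was possible because there is 1 group.

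Peak lists hold only positions above a caller's threshold, so absence from a list is not absence of binding, and depth, which is unknown here, sets how weak a listed peak can be. The scale of the signal is not stated.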
